A study of Homo sapiens with 5 samples.

Results

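The G2/M and mitotic genes described here are 50 genes whose products drive cells into mitosis and through it. They were taken as the rows of the deposited table whose gene name equals a listed member, and all 50 were found among 57773 genes. The cells were HCT116, a line grown from a human colorectal carcinoma, with Dicer knocked out. Dicer is the enzyme that cuts mature microRNAs from their precursors, and the control cells lack it as much as the others. The 5 libraries came from cells transfected with methylated miR-17 (13A), native miR-17, methylated let-7a (19A), native let-7a or a negative control, with 1 library each. The labels name neither the kind of methyl group nor whether the cells are a single clone, and they give no dose or time after transfection.

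Entry into mitosis is driven by CDK1 bound to cyclins A and B, and exit follows when the anaphase-promoting complex marks those cyclins and securin for destruction. Between these events kinesin motors build the spindle, kinetochores hold the chromosomes on it, and the chromosomal passenger complex and centralspindlin lead the cell into cytokinesis. Transcripts of these genes accumulate in G2 and M through shared promoter elements bound by the MuvB, B-MYB and FOXM1 proteins. In dividing cells they are textbook markers of proliferation. RNA of a whole culture cannot tell apart fewer cells in G2 and M from less of these transcripts per cell.

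The transfected microRNAs are shown first because their seeds (bases 2 to 8, in capitals) set which 3′ untranslated regions (3′ UTRs) they can pair with. Both sequences are the mature human forms from RefSeq on GRCh38.p14. The labels do not give the oligonucleotides used. The labels' 19A and 13A fit these sequences, where base 19 of let-7a-5p and base 13 of miR-17-5p from the 5′ end are A.
let-7a-5p: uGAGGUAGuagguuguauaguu
miR-17-5p: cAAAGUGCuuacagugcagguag

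The data are gene-level TPM values, shares of each library scaled for transcript length. A difference below is a difference of log2(TPM + 1), first library minus second, and a list is given by its median beside the median of the 14180 tested genes, those whose mean over the libraries was 1 TPM or more, a filter that all 50 members passed. As a rule of size, members whose difference was 0.32 or more either way were counted beside the percentage of all tested genes past it. With 1 library per group no difference has a replicate check, so there is no standard deviation or p-value. Sequencing depth is unknown. The libraries listed 14173 to 14396 genes at 1 TPM or more. Mitochondrial transcripts held 9.36% to 12.6% of the TPM and ribosomal protein genes 14.2% to 17.6%. All 8 epithelial markers checked, keratins and EPCAM among them, were at 60.5 TPM or more in every library, while 13 markers of blood, vessel, fibroblast, liver and glial cells summed to 18.8 to 25 TPM, with the fibroblast collagen COL1A1 at up to 16.3 TPM and 4 to 7 of the 13 at 0 in each library.

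The members as a group were most abundant with native let-7a and least abundant with miR-17. Their TPM summed to 3272.9 with methylated miR-17, 3133.6 with native miR-17, 3548.5 with methylated let-7a, 4220.8 with native let-7a and 3684.1 in the control. Native let-7a was the highest of the 5 libraries for 44 of the 50 members, against 20.4% of all tested genes. Methylated miR-17 was highest for 1 member (12.6% of tested genes), native miR-17 for 3 (26.4%), methylated let-7a for 0 (9.94%) and the control for 2 (26.5%). Methylated miR-17 was the lowest library for 13 members, against 33.9% of tested genes, and native miR-17 for 26, against 9.52%. Methylated let-7a was lowest for 8 members (18.7% of tested genes), native let-7a for 0 (11.8%) and the control for 1, KIF4A (21.1%). The lowest value of CDC25C and of PRC1 was shared by 2 libraries, and such ties were left out of these counts.

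**Figure D1:**
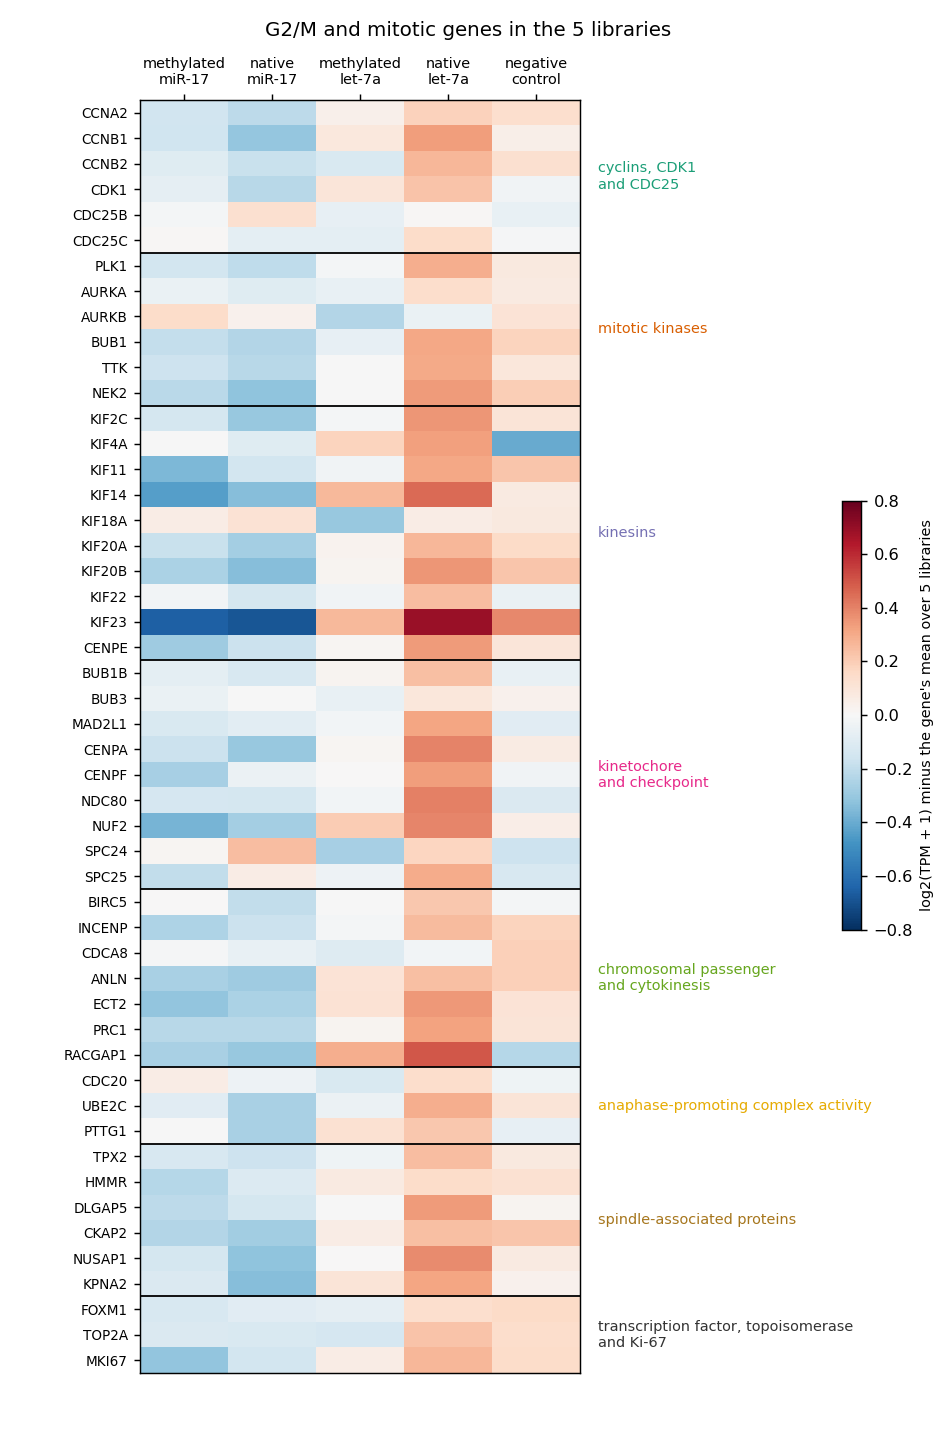
Heat map of log2(TPM + 1) minus each gene's mean over the 5 libraries, for the 50 members in rows grouped by role and the libraries in columns. The native let-7a column is the highest for 44 members, and KIF23 has the strongest contrast between the miR-17 and the let-7a columns.

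Native let-7a against the control asked how the unmodified microRNA changed the transcripts. Of the 50 members 46 were higher and 4 lower with native let-7a, against 49.9% and 47.9% of all tested genes. The median difference was 0.21, against 0.00 for all genes. The 4 that were not higher were AURKB, CDCA8, KIF18A and FOXM1. Members higher by at least 0.32 numbered 10 (12.9% of all tested genes) and members that much lower 0 (11.8%). KIF4A and RACGAP1 had the highest differences, 0.73 and 0.72.

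Methylated let-7a lay close to the control. Of the members 34 were lower and 16 higher, against 56.1% and 41% of all tested genes, with a median of -0.09 against -0.04. Past 0.32 there were 2 members lower (10.3% of tested genes) and 2 higher (9.03%). The lower ones were KIF18A and AURKB, at -0.38 and -0.35, and the higher ones KIF4A and RACGAP1, at 0.58 and 0.52.

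Methylated against native let-7a asked what the methyl group changed. Every member was lower with methylated let-7a, 50 of 50, against 57.1% of all tested genes lower and 39.8% higher, and this count was also 50 when libraries were centred on their median gene or rescaled without mitochondrial and ribosomal protein genes. The differences spanned -0.44 for SPC24 to -0.08 for HMMR, CDC25B and CDCA8, a narrow range around a median of -0.26, with -0.03 for all genes. Members lower by at least 0.32 numbered 19 (7.15% of tested genes), and 0 were higher by as much (5.24%). That number rests on many members close to that size, and it was 10 after the same rescaling.

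The miR-17 libraries lay on the other side of the control. Of the members 44 were lower and 6 higher with native miR-17, against 46.5% and 51.5% of all tested genes, with a median of -0.26 against 0.02. Lower by at least 0.32 were 20 members (15.6% of tested genes), and 1, the kinetochore gene SPC24, was that much higher (18%). With methylated miR-17 against the control, 41 members were lower and 9 higher, against 56.3% and 42.1%, with a median of -0.23 against -0.06. Lower by at least 0.32 were 16 members (25.3% of tested genes), and 1, KIF4A, was higher by as much (15%). Centring the libraries on their median gene brought the lower count to 7, the median to -0.10 and the split to 33 lower and 17 higher, where 44% of all tested genes were lower. That centring moved the median of all genes by 0.12 in this comparison. KIF23 was the only member at least 2-fold lower in TPM + 1 in either miR-17 library, against 2.4% of tested genes with methylated and 1.73% with native miR-17.

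**Figure D2:**
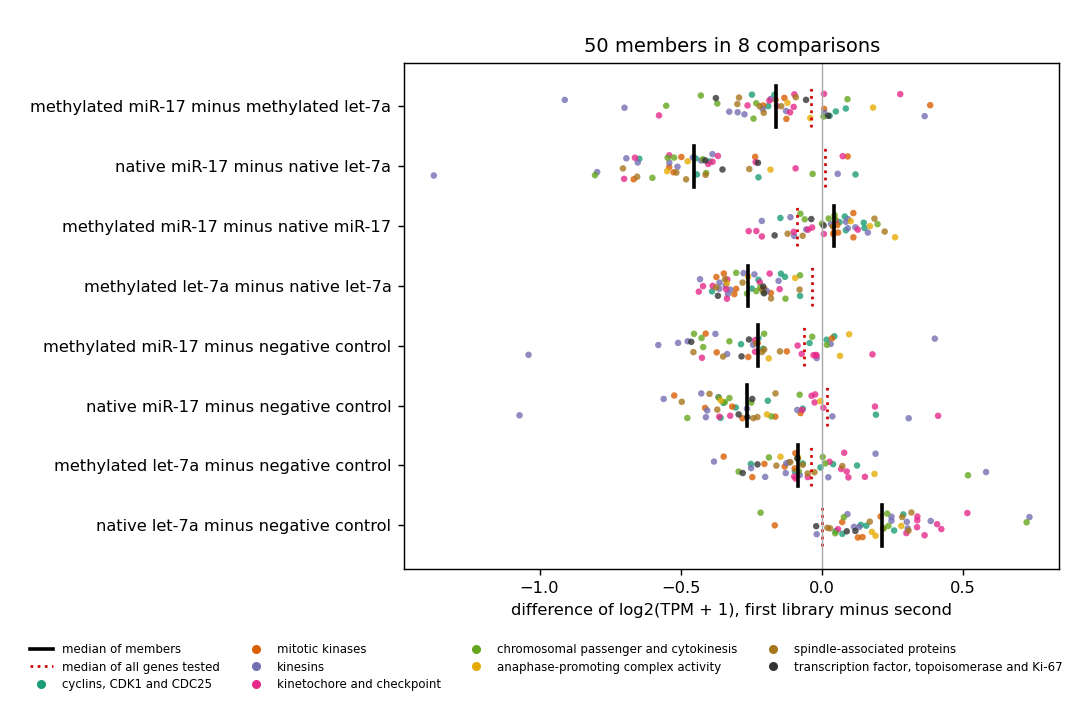
Differences of log2(TPM + 1) for the 50 members (points, coloured by role) in 8 comparisons, with the median of the members (black bar) and of all tested genes (dotted red bar). The members' median lies to the left of that of all genes in native miR-17 against the control and against native let-7a and to the right in native let-7a against the control, and KIF23 is the point at the far left.

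Methylated against native miR-17 gave smaller differences. Members were lower in 17 cases and higher in 32 with methylated miR-17, against 69% and 28.4% of all tested genes, with a median of 0.04 against -0.09, and PRC1 was equal. In this comparison 0 members were past 0.32 in either direction (11.2% of tested genes lower, 3.63% higher). The most distant members were SPC25 at -0.26 and PTTG1 at 0.26. After centring, 7 of 50 were lower and 43 higher, where 44.2% of all tested genes were lower. All 50 members were lower with methylated than with native let-7a. The 32 that were higher with methylated than with native miR-17 before centring, 64%, therefore had opposite signs for the microRNAs. Of all tested genes 18.8% were lower for let-7a and higher for miR-17. The joint count of members repeats the counts above and is not separate evidence. Across the members, the methylated minus native differences of let-7a and miR-17 had a Pearson's r of 0.099. Across all tested genes the r was -0.0776.

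The control library enters 4 of these comparisons, so native and methylated pairs without it were compared as well. Native let-7a, also 1 library, enters the comparisons with the control, with methylated let-7a and with native miR-17. The counts from those comparisons are therefore not separate evidence. Native miR-17 against native let-7a gave 46 members lower and 4 higher, against 46.8% and 51.2% of tested genes, with a median of -0.45 against 0.01. Lower by at least 0.32 were 38 members (13.5% of tested genes) and 0 were that much higher (15%). KIF23 was again the only one at least 2-fold lower (1.45%). Methylated miR-17 against methylated let-7a, which shares no library with it, gave 37 lower and 13 higher (53.6% and 44.5%), with a median of -0.16 against -0.04, and 8 members were lower by at least 0.32 (20.8%) and 2, AURKB and KIF18A, higher (13.1%). In both pairs 37 members were lower, 74% of them, against 34.9% of all tested genes. Across the 50 members, the differences in the 2 pairs had a Pearson's r of 0.826, and across all tested genes an r of 0.4. Genes are not independent replicates, and each pair rests on 2 libraries.

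**Figure D3:**
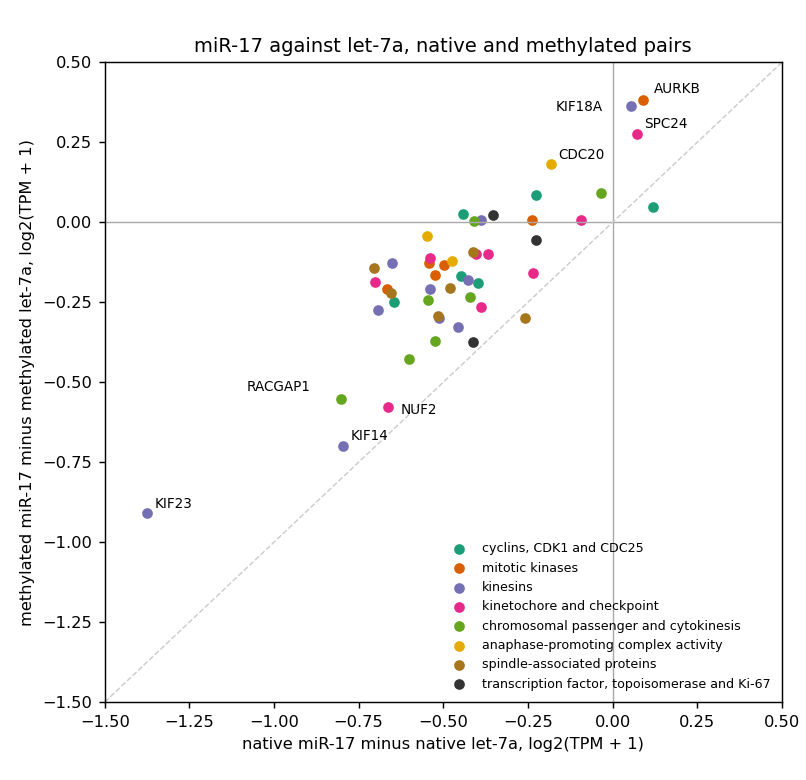
Difference of log2(TPM + 1) for the 50 members in native miR-17 minus native let-7a (horizontal) and methylated miR-17 minus methylated let-7a (vertical), which share no library; the dashed line marks equal values. KIF23 is lowest on both axes, AURKB, KIF18A, SPC24 and the unlabelled CDC25B are above 0 on both, and most members lie above the line, where the native pair has the lower value.

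Cyclins, CDK1 and the CDC25 phosphatases that activate it were higher with native let-7a than in the control for 6 of 6 members. The share of all tested genes was 49.9%, and the class median was 0.15. With native miR-17 5 of 6 were lower than in the control, against 46.5%, with a median of -0.25. CCNB1, the cyclin that binds CDK1 for entry into mitosis, had 180.9 TPM with methylated miR-17, 162.9 TPM with native miR-17, 215.0 TPM with methylated let-7a, 255.6 TPM with native let-7a and 209.2 TPM in the control. CDK1 itself had 41.1, 37.0, 46.3, 50.8 and 42.4 TPM in the same order of libraries. Both were thus highest with native let-7a and lowest with native miR-17, and the CCNB1 to CDK1 ratio stayed between 4.4 and 5.03. CCNB2 and CCNA2, the other mitotic cyclins, were lower with native miR-17 than in the control by -0.31 and -0.35. CDC25B departed from the class. It had 163.6 TPM with methylated miR-17, 181.3 TPM with native miR-17, 158.1 TPM with methylated let-7a, 166.9 TPM with native let-7a and 158.7 TPM in the control, so it was highest with native miR-17 and had the smallest range of the class. CDC25C moved little, with 15.6 TPM with native miR-17 against 16.4 TPM in the control.

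The mitotic kinases lay at a median of -0.30 with native miR-17 against the control, with 6 of 6 lower, against 46.5% of all tested genes. In methylated against native let-7a they lay at -0.31, also with 6 of 6 lower, against 57.1%. NEK2, a centrosome kinase that helps to separate the spindle poles, had 43.5 TPM with methylated miR-17, 40.2 TPM with native miR-17, 50.4 TPM with methylated let-7a, 64.4 TPM with native let-7a and 58.2 TPM in the control. BUB1, a kinase of the spindle checkpoint, had 27.5, 26.7, 30.1, 39.3 and 35.9 TPM in that order. PLK1, which acts from mitotic entry to cytokinesis, had 74.6, 71.8, 81.9, 101.8 and 87.5 TPM. In these kinases both miR-17 libraries lay below both let-7a libraries and the control. TTK, the checkpoint kinase also known as MPS1, followed them, with a difference of -0.53 in native miR-17 against native let-7a. AURKA, the spindle pole Aurora kinase, had the smallest range, with 56.7 TPM with methylated miR-17, 55.1 TPM with native miR-17, 56.4 TPM with methylated let-7a, 65.1 TPM with native let-7a and 61.9 TPM in the control. AURKB, the Aurora kinase of the chromosomal passenger complex, had another order, with 44.9 TPM with methylated miR-17, 41.5 TPM with native miR-17, 34.2 TPM with methylated let-7a, 38.9 TPM with native let-7a and 43.8 TPM in the control. Both let-7a libraries were its lowest.

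Kinesins, the motor proteins of the spindle, held the most distant members. Of the 10, including the kinetochore motor CENPE, 8 were lower with native miR-17 than in the control, against 46.5% of all tested genes. Of these, 6 were lower by at least 0.32, against 15.6% of all tested genes. The class median was -0.39, against 0.02. KIF23, the motor subunit of centralspindlin, had 17.3 TPM with methylated miR-17, 16.9 TPM with native miR-17, 33.4 TPM with methylated let-7a, 45.4 TPM with native let-7a and 36.6 TPM in the control. Its TPM with native miR-17 was 0.462 times that in the control and 0.372 times that with native let-7a, and with methylated miR-17 it was 0.473 times the control. KIF23 was thus at nearly the same level in the methylated and native miR-17 libraries, a difference of 0.03. KIF14, a motor of the midbody, had 7.5 TPM with methylated miR-17, 8.1 TPM with native miR-17, 12.8 TPM with methylated let-7a, 14.8 TPM with native let-7a and 11.1 TPM in the control, and in both miR-17 libraries it lay below the other 3. KIF20B, another cytokinesis motor, had the second largest difference with native miR-17 against the control, -0.56, and KIF11, which pushes the spindle poles apart, was at -0.58 with methylated miR-17 and -0.37 with native miR-17 against the control. KIF20A, the most abundant of the class, had 73.8, 69.2, 85.5, 101.1 and 93.4 TPM in the order methylated miR-17, native miR-17, methylated let-7a, native let-7a and control.

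KIF22, a motor bound to chromosome arms, had the smallest range of the class, with 51.1 TPM with methylated miR-17, 47.0 TPM with native miR-17, 50.8 TPM with methylated let-7a, 61.8 TPM with native let-7a and 50 TPM in the control. KIF18A and KIF4A were the kinesins not lower with native miR-17 than in the control. KIF18A, which limits the length of kinetochore microtubules, had 16.8 TPM with methylated let-7a and 21.9 to 22.8 TPM in the other 4 libraries. KIF4A, a chromosome motor that works with PRC1 in the central spindle, had 29.6 TPM with methylated miR-17, 27.7 TPM with native miR-17, 33.7 TPM with methylated let-7a, 37.6 TPM with native let-7a and 22.2 TPM in the control. It was the only member with its lowest value in the control, where 21.1% of tested genes were lowest by any amount. Its gap to the next library was 0.31 on the log2 scale, short of the 0.32 that 3.39% of tested genes reached. KIF4B, a near-identical intronless copy of KIF4A, was listed at 0.0 to 0.2 TPM, and how reads were divided between the copies is not given in the sources used here.

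Kinetochore and checkpoint genes were higher with native let-7a than in the control in 9 of 9 cases, against 49.9% of all tested genes. In 7 of them the difference was at least 0.32, against 12.9%, and the class median, 0.34, was the highest of the classes. Against the control the class median was -0.07 with methylated miR-17, against -0.06 for all tested genes, with 8 of 9 lower, against 56.3%. With native miR-17 it was -0.03, against 0.02, with 6 lower and 3 higher, against 46.5% and 51.5%. In native miR-17 against native let-7a it was -0.39, with 8 of 9 lower, against 46.8%, and 6 lower by at least 0.32, against 13.5%. Whether the class differs from the kinesins was not tested. NUF2 and NDC80 form the outer part of the NDC80 complex, which binds microtubules, and SPC24 and SPC25 the inner part, which binds the kinetochore. NUF2 had 17.1 TPM with methylated miR-17, 18.4 TPM with native miR-17, 26.0 TPM with methylated let-7a, 29.7 TPM with native let-7a and 23.3 TPM in the control. NDC80 had 21.1, 21.0, 22.9, 31.0 and 21.4 TPM in that order, so that native let-7a alone stood apart. SPC24 had 9.3 TPM with methylated miR-17, 11.1 TPM with native miR-17, 7.5 TPM with methylated let-7a, 10.5 TPM with native let-7a and 8.1 TPM in the control. The subunits of 1 complex thus did not share an order of libraries, and the SPC24 to NDC80 ratio of TPM ran from 0.328 with methylated let-7a to 0.529 with native miR-17.

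CENPA, the histone H3 variant that marks centromeres, had 28.7 TPM with methylated miR-17, 26.2 TPM with native miR-17, 32.8 TPM with methylated let-7a, 43.2 TPM with native let-7a and 34 TPM in the control, the order seen in the kinases. CENPF, a large kinetochore protein, was at 39.9 TPM with methylated and 46.4 TPM with native miR-17. The checkpoint protein MAD2L1 stood at 37.6 TPM with native let-7a and between 27.5 and 29.5 TPM in the other 4 libraries. BUB1B, which holds back the anaphase-promoting complex, was likewise highest with native let-7a, with 40.7 TPM against 32.9 TPM in the control. BUB3, a binding partner of BUB1 and BUB1B, was the steadiest of all 50 members, with 182.4 TPM with methylated miR-17, 188.8 TPM with native miR-17, 181.5 TPM with methylated let-7a, 201.5 TPM with native let-7a and 193.7 TPM in the control.

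**Figure D4:**
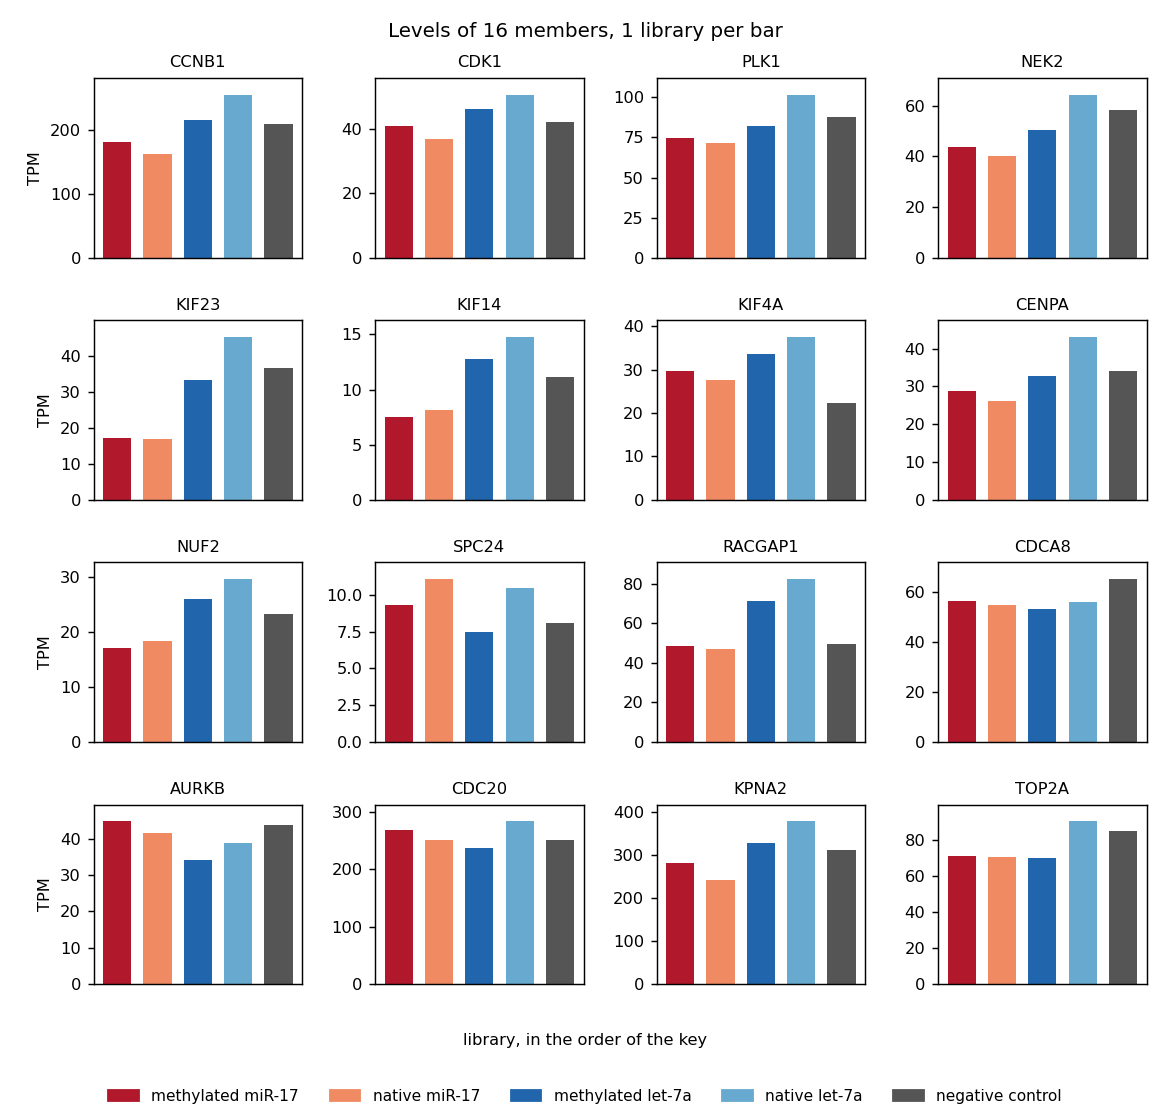
TPM of 16 members in the 5 libraries, 1 bar per library, each panel with its own scale from 0. CCNB1, CDK1, PLK1, NEK2, CENPA and KPNA2 share the order with native let-7a highest and native miR-17 lowest, KIF23 is at 16.9 to 17.3 TPM with miR-17 and at 33.4 TPM or more elsewhere, and KIF4A is lowest in the control.

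Chromosomal passenger and cytokinesis genes had a median of -0.33 against the control with both forms of miR-17. Of the 7, 6 were lower with the methylated form (56.3% of all tested genes) and 7 with the native form (46.5%). RACGAP1, which joins KIF23 in centralspindlin, had 48.4 TPM with methylated miR-17, 46.9 TPM with native miR-17, 71.4 TPM with methylated let-7a, 82.6 TPM with native let-7a and 49.6 TPM in the control. It separated the let-7a libraries from the other 3, while KIF23 separated the miR-17 libraries from the other 3. The RACGAP1 to KIF23 ratio of TPM was 2.8 with methylated miR-17, 2.78 with native miR-17, 2.14 with methylated let-7a, 1.82 with native let-7a and 1.36 in the control. ECT2, the exchange factor that centralspindlin recruits to switch on RhoA, had 40.6, 42.4, 55.0, 64.8 and 54.9 TPM in that order, and ANLN, which links RhoA to the contractile ring, was at 54.3 and 53.4 TPM with miR-17 against 74.7 TPM in the control. BIRC5, the passenger protein survivin, had 133.2 TPM with methylated miR-17, 116.1 TPM with native miR-17, 132.7 TPM with methylated let-7a, 154.6 TPM with native let-7a and 131.6 TPM in the control. CDCA8, the passenger protein borealin, had 56.7, 54.9, 53.2, 56.2 and 65.5 TPM and was the member of the class with the smallest range. The control was its highest library, and the 4 microRNA libraries lay between 53.2 and 56.7 TPM. PRC1, which bundles the central spindle, had 53.1 TPM in both miR-17 libraries, against 66.9 TPM in the control, and INCENP, the scaffold of the passenger complex, had 24.7 and 26.1 TPM against 33.4 TPM.

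Genes that act with the anaphase-promoting complex were higher with native let-7a than in the control for 3 of 3 members (49.9% of tested genes). UBE2C, its ubiquitin-conjugating enzyme, had 139.4 TPM with methylated miR-17, 123.8 TPM with native miR-17, 143.5 TPM with methylated let-7a, 181.5 TPM with native let-7a and 159.0 TPM in the control. PTTG1, the separase inhibitor securin, had 109.9, 91.7, 119.7, 127.9 and 105.1 TPM, and its methylated miR-17 value lay above the control. CDC20, the activator that opens anaphase, had 269.0, 250.6, 237.2, 284.5 and 251.6 TPM, the smallest range of these 3.

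Spindle-associated proteins were lower with native miR-17 than in the control for 6 of 6 members, against 46.5% of all tested genes. The class median was -0.31. KPNA2, the importin that carries TPX2, was the most abundant member, with 280.9 TPM with methylated miR-17, 240.7 TPM with native miR-17, 327.5 TPM with methylated let-7a, 379.4 TPM with native let-7a and 311.5 TPM in the control. NUSAP1, a microtubule bundler, had 94.2, 82.7, 104.2, 135.4 and 109.3 TPM in that order. TPX2, which activates AURKA on the spindle, and DLGAP5, which stabilises kinetochore fibres, lay at -0.41 and -0.48 in native miR-17 against native let-7a. CKAP2, another spindle protein, had 48.6 and 47.2 TPM with methylated and native miR-17, against 67 TPM in the control. HMMR, a spindle and hyaluronan-binding protein, had the smallest range, from 26.3 TPM with methylated miR-17 to 34.5 TPM with native let-7a.

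FOXM1, the transcription factor that activates many of these genes, had 51.7 TPM with methylated miR-17, 53.1 TPM with native miR-17, 53.8 TPM with methylated let-7a, 62.3 TPM with native let-7a and 63.2 TPM in the control. It was at about the same level with native let-7a and in the control, a difference of -0.02, while most members were higher with native let-7a. TOP2A, the topoisomerase that untangles sister chromatids, had 70.9, 70.6, 69.8, 90.4 and 85.0 TPM, so that methylated let-7a stood with miR-17. MKI67, the Ki-67 protein that coats mitotic chromosomes, had 69.6, 78.3, 90.6, 104.6 and 96.3 TPM and was lowest with methylated miR-17.

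The search for pairing sites took each gene's longest 3′ UTR in GENCODE 29, available for all 50 members and for 12023 tested genes. A site was a match to bases 2 to 8 of the microRNA or to bases 2 to 7 followed by an A (a 7mer), and an 8mer had both. A miR-17 site was found in 14 members (28%) and 31.5% of the searched genes, and a let-7a site in 4 members (8%) and 18% of the genes. The members had short 3′ UTRs, with a median of 787.5 nucleotides, against 1356 for all searched genes. KIF23 alone held an 8mer, for miR-17 (2% of members, against 5.52% of genes), at positions 457 to 464 of a 3′ UTR of 620 nucleotides. The sites below are shown because they lie in the members furthest apart between libraries or, for let-7a, in the only 2 members with a site that were lower with native let-7a than in the control. Capitals mark the match, and the position is that of its first base in the 3′ UTR.
KIF23, miR-17 8mer, chromosome 15, position 457: gctgcaagaatGCACTTTAgaactatttga
KIF14, miR-17 7mer, chromosome 1, position 15: ctgatgtgtagGCACTTTtatgaccaccca
KIF14, miR-17 7mer, chromosome 1, position 1556: tctggcaagtaGCACTTTgcctgtgcagtt
RACGAP1, miR-17 7mer, chromosome 12, position 195: acataatatcaGCACTTTgtgctggtcatt
AURKB, let-7a 7mer, chromosome 17, position 93: ttatctgttttCTACCTCctcctttgttta
CDCA8, let-7a 7mer, chromosome 1, position 773: gtcttgctcttCTACCTCcctagttagtgg

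Members with and without a miR-17 site were both lower with native miR-17 than in the control. The 14 with a site had a median of -0.34, with 12 lower, and the 36 without had -0.25, with 32 lower. Of all tested genes 46.5% were lower. Among all searched genes the medians were -0.09 with a site, -0.28 with an 8mer and 0.05 without a site. KIF14 held 4 sites, and KIF23, with its 8mer, lay at -1.07. RACGAP1 and CENPF, with 2 sites and 1 site, lay at -0.08 and -0.02, and SPC24, with 1 site, was higher, at 0.41.

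With let-7a the 4 members holding a site in the longest 3′ UTR were CDC25B, AURKB, MAD2L1 and CDCA8. In native let-7a against the control they lay at 0.07, -0.17, 0.41 and -0.22. AURKA, counted below as without a site, holds 1 in another annotated 3′ UTR and lay at 0.07. The 46 members without a site had a median of 0.22, with 44 higher, against 49.9% of all tested genes. All searched genes without a let-7a site had a median of 0.02, and those with a site -0.07.

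Promoters were read because the members moved together. RefSeq promoters (250 bases before to 50 after the start, GRCh38.p14) were matched for 42 members by symbol and searched on both strands for the letters TTTGAA and TTCGAA, forms of the cell cycle genes homology region (CHR) bound by MuvB complexes, and for CCAAT, the box bound by NF-Y. TTTGAA or TTCGAA was present in 30 of 42 (71.4%), against 16.6% of 27305 promoters. CCAAT was present in 33 of 42 (78.6%), against 35.7%, and both kinds together in 26 (61.9%), against 6.58%. At least 2 CCAAT were found in 21 (50%), against 11.3%. In native miR-17 against native let-7a the 30 members with TTTGAA or TTCGAA had a median of -0.45 and the 12 with neither -0.49. A match is a description of letters and not a shown binding site, and the motifs do not overlap each other in the promoters below. They are shown as a cyclin, a kinase and the most distant kinesin, with the matches in capitals.
CCNB2, chr15:59104896-59105195, plus strand: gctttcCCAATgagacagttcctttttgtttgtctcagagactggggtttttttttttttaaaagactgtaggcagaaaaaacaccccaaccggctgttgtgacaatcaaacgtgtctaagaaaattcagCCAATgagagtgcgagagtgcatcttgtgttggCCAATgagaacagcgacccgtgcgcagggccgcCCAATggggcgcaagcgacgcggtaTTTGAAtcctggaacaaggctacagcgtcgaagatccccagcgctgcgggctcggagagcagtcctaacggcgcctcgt
PLK1, chr16:23678639-23678938, plus strand: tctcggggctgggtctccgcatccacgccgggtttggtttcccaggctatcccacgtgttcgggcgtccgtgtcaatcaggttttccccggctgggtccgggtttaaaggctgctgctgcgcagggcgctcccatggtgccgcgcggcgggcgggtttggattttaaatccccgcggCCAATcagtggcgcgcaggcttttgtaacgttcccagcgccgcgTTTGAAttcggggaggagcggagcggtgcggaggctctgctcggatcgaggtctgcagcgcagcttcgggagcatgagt
KIF23, chr15:69414099-69414398, plus strand: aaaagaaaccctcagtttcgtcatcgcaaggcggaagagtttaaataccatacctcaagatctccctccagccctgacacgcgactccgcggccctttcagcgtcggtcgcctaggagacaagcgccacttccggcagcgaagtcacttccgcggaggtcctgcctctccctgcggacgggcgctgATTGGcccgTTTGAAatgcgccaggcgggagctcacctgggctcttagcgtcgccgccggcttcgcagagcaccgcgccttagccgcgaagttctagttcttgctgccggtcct

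Mitotic genes and related kinesins outside the 50 members, KIF3A, KIF3B, KIF5B and KIFC3 among them, were read in 6 lists with 116 tested genes. With native let-7a 91 of the 116 were higher than in the control, against 49.9% of all tested genes, with a median of 0.14. In methylated against native let-7a 100 were lower, against 57.1%, with a median of -0.18. In native miR-17 against native let-7a 92 were lower, against 46.8%, with a median of -0.23, and 45 were lower by at least 0.32, against 13.5%. The lists of other spindle proteins and kinesins and of other entry kinases and late genes came nearest to the members in that comparison, with medians of -0.36 and -0.39. The lists of the anaphase-promoting complex, with UBE2S and FZR1, and of cohesin, shugoshin and separase lay nearer to 0, at -0.04 and -0.14. Native let-7a enters each of these comparisons. In native miR-17 against the control 71 of the 116 were lower and 44 higher, against 46.5% and 51.5% of all tested genes. The median was -0.09, against 0.02. In methylated miR-17 against methylated let-7a 70 were lower and 44 higher, against 53.6% and 44.5%. The median was -0.08, against -0.04.

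Among the spindle proteins ASPM, which organises spindle poles, had 10.5 TPM with methylated miR-17, 10.6 TPM with native miR-17, 16.8 TPM with methylated let-7a, 21.2 TPM with native let-7a and 18.2 TPM in the control, without a miR-17 site in the searched 3′ UTR. KIF15, a motor that works beside KIF11, had 6.9, 6.4, 8.7, 12.1 and 8.7 TPM. PBK, a mitotic kinase, had 50.2, 46.1, 70.6, 89.1 and 78.8 TPM, and MASTL, the Greatwall kinase that blocks the phosphatase opposing CDK1, had 5.5, 5.5, 8.0, 9.8 and 10.7 TPM. MASTL holds a miR-17 8mer, as does the kinetochore gene CENPQ, which had 9.6, 7.1, 16.8, 19.4 and 12.8 TPM. In these genes the miR-17 libraries were the lowest. UBE2S, which extends ubiquitin chains for the anaphase-promoting complex, had 812.0 and 781.4 TPM with methylated and native miR-17, 1138.0 and 1264.5 TPM with methylated and native let-7a and 1116.9 TPM in the control.

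Not every list followed in every comparison. Other kinetochore and centromere genes were higher with native let-7a against the control (26 of 31, against 49.9% of all tested genes, median 0.26). In native miR-17 against native let-7a 23 were lower and 8 higher, against 46.8% and 51.2%, with a median of -0.18. With native miR-17 against the control they had a median of 0.13, against 0.02 for all genes. Of them 17 were higher and 14 lower, against 51.5% and 46.5% of all tested genes. CENPM, for example, had 14.7 TPM with methylated miR-17, 10.2 TPM with native miR-17, 9.5 TPM with methylated let-7a, 13.5 TPM with native let-7a and 7.8 TPM in the control. The 8 condensin subunits had a median of 0.00 with native miR-17 against the control, with 4 lower and 4 higher (46.5% and 51.5%). Against native let-7a their median with native miR-17 was -0.25, with 7 lower, against 46.8% of all tested genes. Among them NCAPD2 had 109.3, 104.5, 135.7, 143.9 and 151.7 TPM, while SMC2 had 8.9, 8.9, 8.4, 9.4 and 6.1 TPM and was lowest in the control. The cohesin protectors SGO1 and SGO2 were highest with native let-7a, at 9.4 and 15.3 TPM, against 7.3 and 12.3 TPM in the control. FZR1, the activator of the complex after mitosis, had 21.7 TPM with methylated miR-17 and 27.3 to 32.8 TPM in the other 4 libraries.

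G1/S and DNA replication genes went the other way with miR-17. In native miR-17 against the control 30 of 40 were higher, against 51.5% of all tested genes, with a median of 0.29 against 0.02. In native miR-17 against native let-7a 28 were higher, against 51.2%, with a median of 0.15 against 0.01. In methylated miR-17 against methylated let-7a 37 were higher, against 44.5%, with a median of 0.42 against -0.04. GINS2, a subunit of the replicative helicase, had 17.3 TPM with methylated miR-17, 17 TPM with native miR-17, 8.4 TPM with methylated let-7a, 9.5 TPM with native let-7a and 12.4 TPM in the control, whereas cyclin E2 (CCNE2) had 2.9, 2.5, 2.1, 2.3 and 4.7 TPM. In methylated against native let-7a 37 of 40 were lower, against 57.1% of all tested genes. The median was -0.16, against -0.03, the same direction as the mitotic members. Genes of the MuvB, B-MYB and DREAM complexes are the regulators that bind the promoters of mitotic genes. They had medians of 0.02 with native miR-17 and -0.14 with native let-7a against the control. With native miR-17 7 of the 12 were higher and 5 lower, against 51.5% and 46.5% of all tested genes. RBL2, the pocket protein p130 of the DREAM complex, and its partner E2F5 each hold a miR-17 8mer, and E2F5 a let-7a site as well. RBL2 had 11.8 and 11.6 TPM with methylated and native miR-17, 19.6 TPM in both let-7a libraries and 22.1 TPM in the control. E2F5 had 6.1 and 5.6 TPM with miR-17, 6.3 and 6.7 TPM with let-7a and 8.8 TPM in the control.

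**Figure D5:**
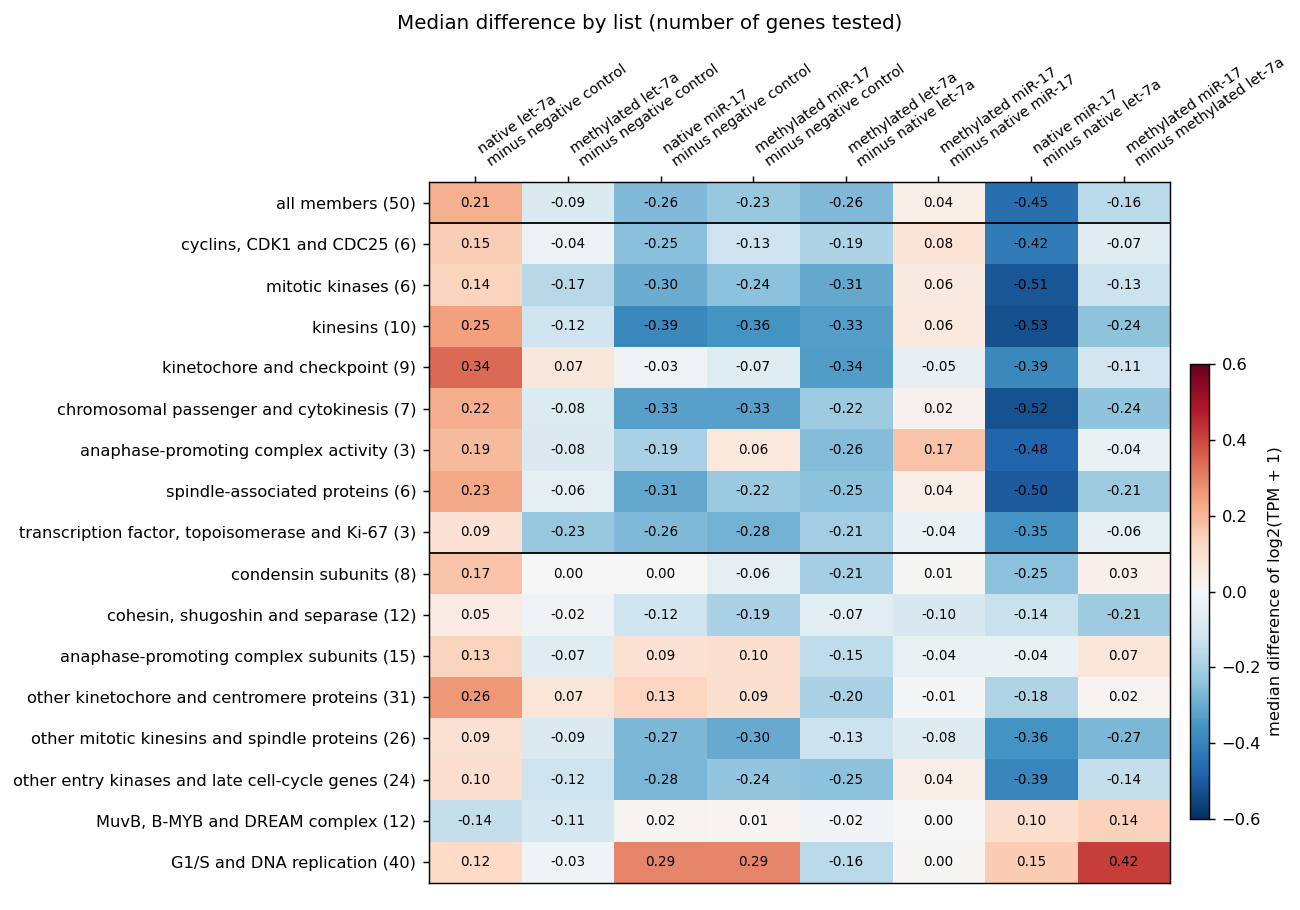
Median difference of log2(TPM + 1) for all members, the 8 role classes and 8 lists of other cell-cycle genes (rows, with the number of genes tested) in the 8 comparisons (columns). Methylated minus native let-7a is below 0 in every row, and the G1/S row is 0.29 with native miR-17 against the control, where all members are at -0.26.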

How the data were processed

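Libraries were strand-specific and made from Isogen-extracted RNA after Ribo-Zero removal of ribosomal RNA, per the labels' protocols. The authors deposited 1 table of TPM values per gene, rounded to 1 decimal. The genome build was hg19, per the submitters' processing notes; how reads were aligned and counted is not given in the sources used here. Read counts cannot be recovered from TPM, so depth is unknown and no interval is given.

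Tested genes had a mean over the 5 libraries of 1 TPM or more. Differences of log2(TPM + 1) were computed in Python 3.11.15 with pandas 2.3.3. The pseudocount of 1 TPM understates the change of low genes. A TPM is a share, so abundant genes shift all others. The functions were tested on simulated data. Groups hold 1 library each, so no test was run, and 8 comparisons are given. GENCODE 29 uses another build than the table and served only for transcript sequences; sites and promoters come from GRCh38. The members and lists were chosen with earlier results of these data known. Genes named in full were, in each role class and among members averaging 5 TPM or more, the 2 with the largest and the 1 with the smallest range over the libraries and the most abundant, plus any with an 8mer, and in each other list the 2 with the largest range. KIF4A, AURKB, NDC80, SPC24, KIF18A and other members outside this rule were named after their values were seen. Alternatives were pseudocounts of 0.1 and 5 TPM, a minimum mean of 5 TPM, no filter, centring on the median gene, rescaling without mitochondrial and ribosomal protein genes, and leaving out members with a seed match.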

Additional observations from a re-analysis of the deposited data

Results flagged for a closer look

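Methylated minus native gave opposite signs for the 2 microRNAs in the members' median, -0.26 for let-7a and 0.041 for miR-17, with 1 library behind each value. The difference between them was not tested. Among the members, KPNA2 alone was past 0.2 in opposite directions, at -0.21 for let-7a and 0.22 for miR-17, which was not tested either.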

How the results depend on the processing

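No paired analysis was possible because each group holds 1 library, and for the same reason no library could be left out. A value was taken as unchanged within 1.5 times or 0.05 on the log2 scale. Of 60 recomputed medians of the members 57 were unchanged, as were 87 of 96 counts past 0.32, and the signs of the medians and of the named members past 0.32 were the same in all of them. Centring on the median gene gave medians of -0.10 for methylated miR-17 against the control (-0.23 before), 0.15 for methylated against native miR-17 (0.04 before) and -0.065 for methylated miR-17 against methylated let-7a (-0.16 before). It also gave counts of 7 members lower in the first of these (16 before), 2 higher in the second (0 before) and 5 lower in the third (8 before). A pseudocount of 5 TPM gave 6 members higher with native let-7a (10 before), 0 lower with methylated let-7a (2 before) and 0 higher with native miR-17 (1 before), each against the control. It gave 10 lower in methylated against native let-7a (19 before) and 1 higher in methylated miR-17 against methylated let-7a (2 before). Rescaling without mitochondrial and ribosomal protein genes also gave 10 in methylated against native let-7a. The cause of these shifts was not tested.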

Other observations

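KIF4A, the member lowest in the control, has the letters GGTTGTG in its 3′ UTR. These letters were picked on the same libraries, among all 7-letter words, as ones whose genes lay low in the control, so values against the control are no independent evidence for them. Among the members 4 hold them, KIF4A, MAD2L1, BIRC5 and RACGAP1, against 10.5% of all searched genes. In native let-7a against the control they lay at 0.73, 0.41, 0.23 and 0.72, and in native miR-17 against the control at 0.31, 0.00, -0.18 and -0.08. KIF4A, MAD2L1, BIRC5 and RACGAP1 were left out in an alternative chosen after seeing the data, and the members' medians against the control were then -0.23 with methylated miR-17, -0.29 with native miR-17, -0.09 with methylated let-7a and 0.18 with native let-7a. The part of these letters in the values was not tested.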
